A study of Caenorhabditis elegans with 4 samples.

Results

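The regions described here are the 1037 regions that stood directly below the optimal peaks in a genome-wide list for UNC-62 in Caenorhabditis elegans larvae. The list holds peaks of UNC-62 binding together with background, so these regions need not all be bound sites. They were chosen by their measured signal: the 18556 regions of the authors' merged list were ranked by signal value, and ranks 1038 to 2074 were kept. The 1037 regions above them were the authors' optimal peaks, which passed a threshold on the irreproducible discovery rate (IDR), a statistic of how well ranks are repeated between replicates. These lower regions, called members here, are set beside the optimal peaks and beside the next 1037 regions of the list, ranks 2075 to 3111.

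ChIP-seq, the sequencing of DNA recovered with a tagged protein by immunoprecipitation, was done in 4 biological replicates of 1 group. All 4 replicates were whole L3 larvae of mixed sex from strain OP600, which carries the unc119(ed3) mutation and the transgene wgIs600, with unc-62 fused to TY1, EGFP and FLAG tags and with an unc119 rescue gene. No untagged, wild-type or unc-62 mutant group was analysed here, and in whole larvae a site bound strongly in few cells and a site bound weakly in many cells cannot be told apart. Per the labels, replicates 1 and 2 were prepared with fragments of 150 to 350 bp, and replicates 3 and 4 by sonication with a microtip.

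UNC-62 is a homeodomain transcription factor of the TALE class and the worm relative of Homothorax in flies and of MEIS proteins in vertebrates. Relatives of UNC-62 recognise a MEIS-type core, TGACAG, and join with PBX-type proteins, such as CEH-20 in worms, and with Hox proteins, whose joint site contains TGAT followed by a second part such as TGAT. In worms UNC-62 is known for roles in Hox-dependent patterning, in cell migrations and in the adult intestine.

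The sequences at the summits of 10 members are shown because they carry these 2 motifs; a summit is the position of highest signal within a region. Each line gives the 101 bp centred on the summit, 5′ to 3′ on the + strand of ce11 (WBcel235), read from the RefSeq genome. Capitals mark TGACAG or its reverse complement in the first 6 lines, and TGATTGAT or its reverse complement in the last 4. The lines are 6 members with TGACAG and 4 with TGATTGAT, given by falling signal for each motif, and their windows held no exon. They are not all the members of highest signal with these motifs: at least 1 member with TGACAG had a higher signal and is not shown.
tmem-184: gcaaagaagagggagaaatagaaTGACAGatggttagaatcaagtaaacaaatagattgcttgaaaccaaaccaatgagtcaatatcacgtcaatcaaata
dao-6: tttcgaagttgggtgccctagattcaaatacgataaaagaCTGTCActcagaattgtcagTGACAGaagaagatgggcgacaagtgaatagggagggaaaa
unc-3: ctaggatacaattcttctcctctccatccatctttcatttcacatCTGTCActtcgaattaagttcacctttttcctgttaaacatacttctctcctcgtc
lin-14: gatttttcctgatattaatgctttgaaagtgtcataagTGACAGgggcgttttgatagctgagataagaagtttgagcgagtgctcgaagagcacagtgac
Y46G5A.47: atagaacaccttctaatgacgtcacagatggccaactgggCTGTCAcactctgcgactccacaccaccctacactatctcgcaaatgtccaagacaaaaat
F17C11.26: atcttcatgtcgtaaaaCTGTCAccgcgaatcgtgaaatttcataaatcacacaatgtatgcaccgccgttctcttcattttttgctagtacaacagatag
vab-8: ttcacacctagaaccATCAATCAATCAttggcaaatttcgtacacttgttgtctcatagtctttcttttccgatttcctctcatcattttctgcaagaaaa
ric-4: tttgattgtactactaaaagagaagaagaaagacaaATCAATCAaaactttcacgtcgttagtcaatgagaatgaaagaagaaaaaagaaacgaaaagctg
T28B11.1: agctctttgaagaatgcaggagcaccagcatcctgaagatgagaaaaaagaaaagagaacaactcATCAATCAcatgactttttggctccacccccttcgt
spr-2: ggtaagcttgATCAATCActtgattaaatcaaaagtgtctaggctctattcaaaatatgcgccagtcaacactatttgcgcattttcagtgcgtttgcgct
The windows lay at chrX:14707038-14707138 (tmem-184), chrIII:9734156-9734256 (dao-6), chrX:14780260-14780360 (unc-3), chrX:11481138-11481238 (lin-14), chrII:12805826-12805926 (Y46G5A.47), chrV:10940336-10940436 (F17C11.26), chrV:12208875-12208975 (vab-8), chrV:10263942-10264042 (ric-4), chrV:10719203-10719303 (T28B11.1) and chrIV:8891275-8891375 (spr-2). The unc-3 and lin-14 windows lay in introns of those genes, unc-3 encoding a COE-type factor of motor neurons and lin-14 a timing factor of larval development. The ric-4 window lay in an intron of ric-4, which encodes the synaptic SNAP-25 protein, and the window named for vab-8, a kinesin-like gene of axon and cell migration, lay 4402 bp upstream of its nearest start, between genes. The dao-6 window held 2 copies of TGACAG on opposite strands, and the vab-8 window held 2 overlapping copies of TGATTGAT.

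The signal value, the authors' own value per region, ran from 37.2 down to 26.5 among the members, with a median of 30.4. The optimal peaks had a median of 50.5 and ended at 37.3, and the next regions had a median of 23.95 and ended at 21.95. These values chose the 3 bands and are a description. Just inside the upper end stood a promoter region of atx-2, the ataxin-2 gene, at rank 1038 (37.24), then C08H9.16 at rank 1039 (37.17) and hlh-11 at rank 1040 (37.12). Just outside it stood Y54G2A.26 at rank 1037 (37.27), dmd-6 at rank 1036 (37.28) and nova-1 at rank 1035 (37.31). The lower end passed from zipt-9 (26.498), gldi-8 (26.495) and fat-1 (26.492) at ranks 2072 to 2074 to ckr-2 (26.490), F55C7.2 (26.487) and pkc-2 (26.483) at ranks 2075 to 2077. Neighbours at both ends thus differed by less than 0.1 of a signal unit, and no gap in signal separated the members from either side.

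The −log10 q-value of the deposited list, in contrast, changed inside the band. All optimal peaks had the highest value in the list, 3.42, and 291 members shared it, down to rank 1328. The other 746 members lay below it, and the lowest member stood at 2.36. All 1037 members were 356 bp wide, the width of 984 of the optimal peaks (94.9%), whose widths ran from 89 to 428 bp.

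Members were found among the highest regions of single replicates less often than optimal peaks were, and few of them in more than 1 replicate. A member was called covered when at least 1 bp overlapped one of the 1037 highest regions of a replicate's own list. Replicate 1 covered 192 members (18.5%), replicate 2 187 (18.03%), replicate 3 153 (14.8%) and replicate 4 110 (10.6%). The mean was 15.5% ± 3.65 (SD, n = 4), against 55.6% ± 19.4 of the optimal peaks and 6.49% ± 2.28 of the next regions. In every replicate the share of members lay between those of the optimal peaks and of the next regions. No test is given, because the merged signal that ranked the regions came from the same 4 replicates.

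**Figure D1:**
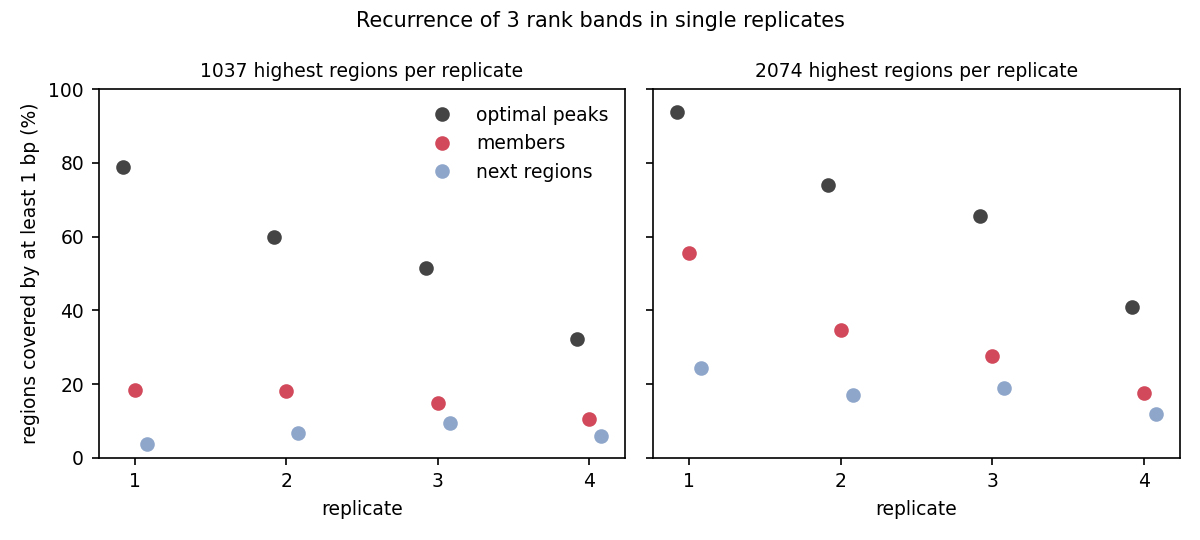
Share of regions (y axis, percent) covered by at least 1 bp by the 1037 (left) or 2074 (right) highest regions of each replicate (x axis), for the optimal peaks, the members and the next regions, 1 point per replicate. Members sit between 10.6% and 18.5% on the left, between the other bands in each replicate, and replicate 1 covers 55.5% of them on the right.

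Widening each replicate's list moved replicate 1 most. Its 2074 highest regions covered 576 members (55.5%), while those of replicates 2, 3 and 4 covered 359 (34.6%), 287 (27.7%) and 181 (17.5%). At any rank, a region was listed for 1014 members (97.8%) in replicate 1, 902 (86.98%) in replicate 2, 854 (82.4%) in replicate 3 and 666 (64.2%) in replicate 4. The median rank of the listed members was 1850.5 in replicate 1, 3061 in replicate 2, 4355 in replicate 3 and 5713 in replicate 4. The median member thus stood inside ranks 1038 to 2074 in replicate 1, and lower in the other 3. Replicate lists held 30000 regions, or 28073 in replicate 4, so being listed at some rank is a weak condition.

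Counted by member, 525 (50.6%) were covered by the 1037 highest regions of no replicate, 401 (38.7%) by those of 1 replicate, 97 by those of 2, 9 by those of 3 and 5 by those of all 4. Of the optimal peaks, 35 (3.38%) were covered in no replicate and 146 (14.1%) in all 4. Median signal was 29.4 among the members covered in none, 31.4 in 1 and 32.7 in 2. Of the members covered in exactly 2 replicates, 22 were shared by replicates 1 and 2, 19 by replicates 3 and 4, 22 by replicates 2 and 3, 17 by replicates 1 and 3, 9 by replicates 1 and 4, and 8 by replicates 2 and 4. The 2 pairs prepared in the same way shared 41 of these 97 members, or 20.5 per pair, and the 4 mixed pairs shared 56, or 14 per pair. Replicates 1 to 4 covered unlike numbers of members (192, 187, 153 and 110), and the part of preparation in these counts was not tested. All members were listed at some rank in at least 1 replicate, 452 (43.6%) in all 4.

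**Figure D2:**
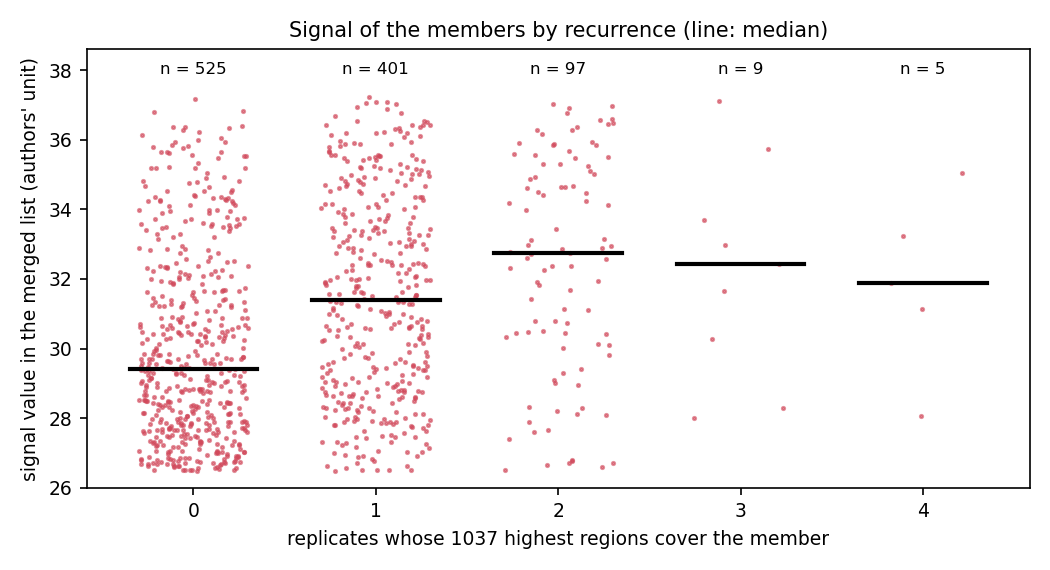
Signal value in the merged list (y axis, the authors' unit) of each of the 1037 members, grouped by the number of replicates whose 1037 highest regions cover it (x axis). Each point is 1 member and the line is the median, 29.4 for 525 members covered in no replicate and 31.9 for 5 covered in all 4; points are spread sideways at random.

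The 5 members covered in all 4 replicates all lay against an optimal peak. They were named by the nearest protein-coding start: F17C11.26, miz-1, unc-76, lgg-2 and algn-10. The member 439 bp upstream of lgg-2, an autophagy gene of the LC3 family (chrIV:10936164-10936519, signal 31.1), met regions ranked 82, 178, 147 and 129 in replicates 1 to 4. The member 312 bp upstream of unc-76, an axon fasciculation gene (chrV:15071270-15071625, signal 31.9), met regions ranked 1002, 73, 61 and 47. Replicate ranks at both were far above the merged ranks of 1482 and 1414, in all 4 replicates at lgg-2 and in replicates 2, 3 and 4 at unc-76.

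At miz-1 (chrIV:10821968-10822323, signal 33.2) the ranks were 266, 78, 544 and 230. The member near F17C11.26 (chrV:10940208-10940563, signal 35.04) met ranks 455, 329, 256 and 336. The member near algn-10, a glycosylation gene (chrI:9962883-9963238, signal 28.1), met ranks 485, 151, 180 and 185. At each of these 5 members an optimal summit lay 201 to 252 bp away and an optimal peak overlapped the member. The high replicate ranks there belong to regions that may overlap the member only at an edge: no member was covered in all 4 replicates when at least 50% of the member had to overlap, and none when summits had to lie within 100 bp.

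The same held for the members covered in 3 replicates. Of the 14 members covered in 3 or 4, 12 overlapped an optimal peak and all 14 had an optimal summit within 1000 bp. They included members at daf-12, the steroid hormone receptor of the developmental timing pathway (intron, ranks 706, 237, 581 and 1825), drap-1 (ranks 72, 11891, 68 and 41) and dmd-7 (ranks 1030, 74, 501 and 5229). The 2 that did not overlap an optimal peak were at hlh-11, which encodes a basic helix-loop-helix factor (387 bp from an optimal summit; ranks 252, none, 702 and 187), and at crh-2, a gene of the CREB family (948 bp; ranks 25492, 627, 645 and 724). At each of daf-12, drap-1, dmd-7, hlh-11 and crh-2, 1 replicate departed from the other 3.

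In all, 16 members overlapped an optimal peak, and a mean of 76.6% ± 22.5 (SD, n = 4) of them was covered per replicate. Among the 1021 members that overlapped none, the mean was 14.5% ± 3.40, close to that of all members. Among the 985 members with no optimal summit within 1000 bp, 518 were covered in no replicate, 379 in 1 and 88 in 2, and none in 3 or 4. The median distance from a member to an optimal summit was 22870 bp, and 12 members overlapped another member.

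At the other extreme, 122 members (11.8%) were not covered even by the 2074 highest regions of any replicate. The 5 of highest signal among them were at ptrn-1, a microtubule minus-end gene (signal 35.7; ranks 3839, 7826, 2739 and 4905), unc-80, a gene of the sodium leak channel complex (35.2; ranks 3096, 4411, 4305 and 7642), tbc-7 (34.9; ranks 2889, 3604, 23451 and 11534), spd-5, a centrosome scaffold gene (34.5; ranks 2508, none, 3741 and 5814), and 3815 bp upstream of unc-62 itself (34.3; ranks 3867, 22873, 18852 and none). At ptrn-1 and unc-80 all 4 replicates listed a region at a moderate rank. At the other 3 at least 1 replicate listed none or one far down its list. The share with a promoter summit was 57 of 122 (46.7%) in this set, 208 of 509 (40.9%) among members covered by 1 replicate at that depth, 131 of 332 (39.5%) among those covered by 2, 24 of 66 (36.4%) by 3 and 5 of 8 (62.5%) by all 4.

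The strongest members showed the same uneven recurrence. At atx-2 (chrIII:10461161-10461516, 50 bp upstream) the ranks were 2148, 413, 29700 and none. At T23F6.3 (chrIV:12724665-12725020) they were 1011, 10780, 445 and none. At pkc-1, a protein kinase C gene (intron, chrV:12026868-12027223), they were 808, 1137, 15723 and 1319. At sol-1, whose product is an auxiliary subunit of a glutamate receptor, they were 764, 635, 5578 and none. Of the 10 members of highest signal, hlh-11 was covered in 3 replicates, T23F6.3 and sol-1 in 2, C08H9.16 in none and the other 6 in 1. Those 6 were atx-2, B0361.9, T01C1.4, C33C12.1, pkc-1 and nck-1, which encodes an SH2 and SH3 adaptor.

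By location the members did not differ past the threshold from the optimal peaks in any class, and differed from the regions below them in 3. Each summit was put in 1 class, in the order promoter (up to 1000 bp upstream of a start of a protein-coding transcript), 5′ UTR, coding exon, 3′ UTR, intron and intergenic. Promoters held 425 member summits (41.0%) and 429 optimal summits (41.4%), an odds ratio of 0.984 with a 95% interval of 0.823 to 1.18 (Fisher's exact test, two-sided, Benjamini-Hochberg over 6 classes, adjusted p = 0.894). Introns held 237 (22.9%) and 207 (19.96%), intergenic sequence 330 (31.8%) and 360 (34.7%), and coding exons 21 (2.03%) and 14 (1.35%). No class passed the threshold of 0.05 against the optimal peaks, the lowest adjusted p being 0.53, and the interval for coding exons, an odds ratio of 1.51 (0.728 to 3.23), leaves room for a sizeable difference either way. Regions are not replicates, so these p-values cover counting over regions only.

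Against the next regions 3 classes differed. Promoter summits were more frequent among the members (41.0% against 35.4%; odds ratio 1.27, 1.06 to 1.52; Fisher's exact test, adjusted p = 0.0299). Coding exon summits were less frequent (2.03% against 5.11%, or 21 against 53; odds ratio 0.384, 0.218 to 0.653; Fisher's exact test, adjusted p = 0.00119), as were 3′ UTR summits (1.06% against 2.51%; odds ratio 0.417, 0.185 to 0.879; Fisher's exact test, adjusted p = 0.038). None of the 3 passed the same Fisher's exact test with members of ranks 1556 to 2074 alone (coding exon adjusted p = 0.0606, promoter 0.407, 3′ UTR 0.556). The 3′ UTR difference also missed the threshold of Fisher's exact test with promoters of 500 bp (adjusted p = 0.126) or 2000 bp (0.273). Further down the merged list, in the 17th block of 1037 regions, coding exons held 16.2% and promoters 25.3% of the summits.

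**Figure D3:**
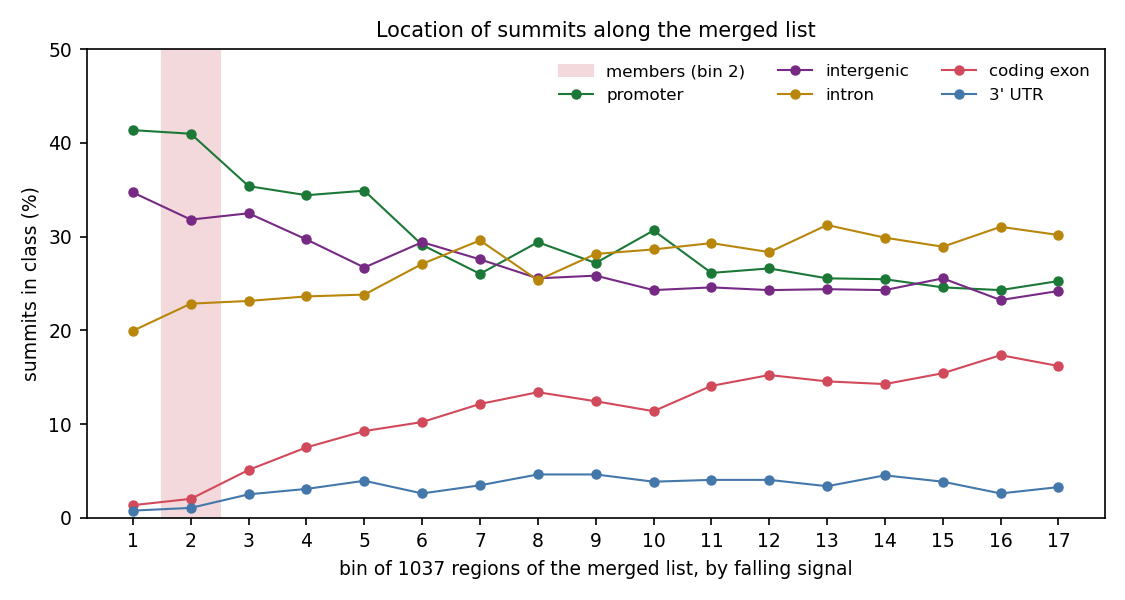
Share of summits (y axis, percent) in 5 location classes along the merged list, in blocks of 1037 regions by falling signal (x axis, block 1 the optimal peaks, block 2 the members). Coding exon summits make up 2.03% of the members and 5.11% of block 3, and promoter summits 41.0% and 35.4%.

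Location by falling rank was also looked at with the replicate as the unit. The first and the second 1037 nuclear regions of each replicate's own list were compared. By rank these sets stand where the optimal peaks and the members stand in the merged list, but they are not the same sets of regions. The contrast is thus not that of members against next regions. Coding exons held 1.35% of the first and 2.70% of the second set in replicate 1, 3.28% and 11.3% in replicate 2, 4.15% and 8.87% in replicate 3, and 11.9% and 14.1% in replicate 4. The mean difference was 4.07 points ± 2.99 (SD, n = 4; higher in 4 of 4; exact sign-flip permutation test, two-sided, p = 0.125). Promoter shares of the first and second set were 40.4% and 38.5%, 40.4% and 32.4%, 39.5% and 32.7%, and 30.9% and 31.3% in replicates 1 to 4, a mean difference of −4.07 points ± 4.02 (lower in 3 of 4; exact permutation p = 0.25). The mean difference was 2.63 points ± 0.885 for introns (higher in 4 of 4) and −3.09 points ± 1.68 for intergenic sequence (lower in 4 of 4). Both gave p = 0.125 by the exact sign-flip permutation test. With 4 replicates this test cannot go below 0.125, so none of these differences could pass the threshold. The direction for coding exons was shared by both ways of preparing the fragments, and that for promoters was not shared by replicate 4.

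**Figure D4:**
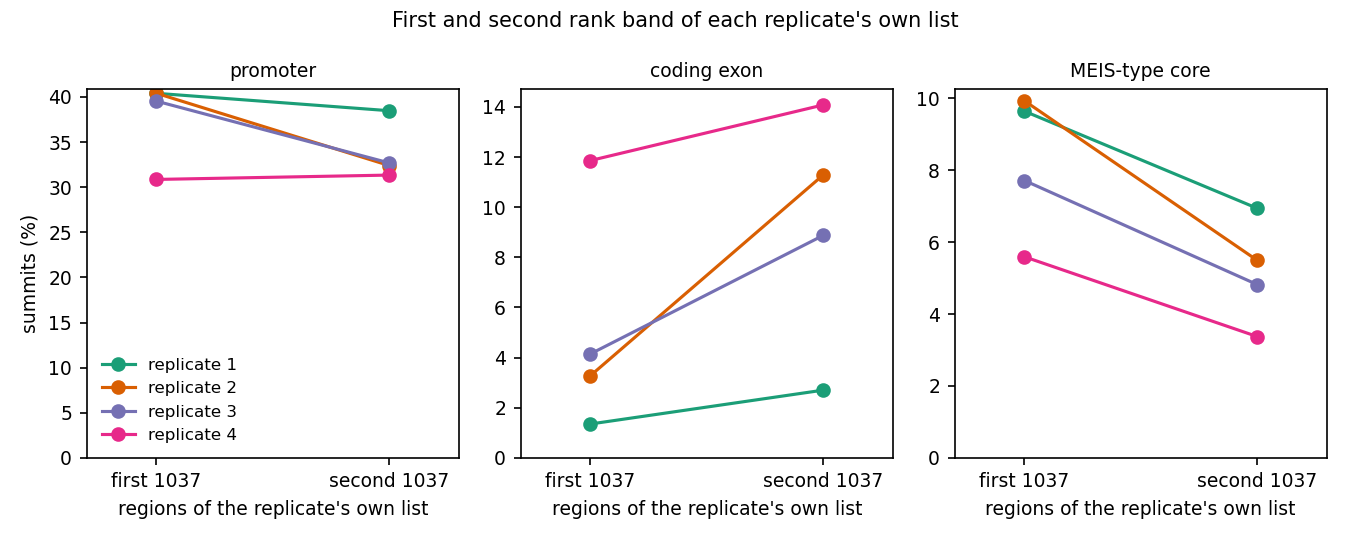
Shares of summits (y axes, percent, each from 0) in promoters, in coding exons and with the MEIS-type core TGACAG, for the first and second 1037 regions of each replicate's own list (x axis), 1 line per replicate. Coding exon shares are higher and TGACAG shares lower in the second set in all 4 replicates, and replicate 4 has the lowest promoter share of the first set, 30.9%.

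Within 50 bp of the summit, the MEIS-type core was about as frequent at members as at optimal peaks. TGACAG, read on either strand in the 101 bp centred on the summit, was present at 97 members (9.35%), 105 optimal peaks (10.1%) and 85 next regions (8.20%). In windows of the same size centred 200 bp to each side of the member summits it was present in 3.71%, and in such windows tiled over the nuclear genome in 3.41% (3.31% in promoter windows). Members and optimal peaks did not differ past the threshold (odds ratio 0.916, 0.677 to 1.24; Fisher's exact test over 6 motifs, adjusted p = 0.725), nor did members and next regions (1.16, 0.842 to 1.59; adjusted p = 0.472 by Fisher's exact test). Within 25 bp of the summit TGACAG was at 4.63% of members, 6.27% of optimal peaks and 4.44% of next regions. The difference from the optimal peaks there also missed the threshold (Fisher's exact test, adjusted p = 0.182). In each replicate's own list, however, the share within 50 bp was lower in the second 1037 regions than in the first. In replicates 1 to 4 it was 9.64% and 6.94%, 9.93% and 5.50%, 7.71% and 4.82%, and 5.59% and 3.38%, a mean difference of −3.06 points ± 0.959 (SD, n = 4; exact permutation p = 0.125, the smallest possible).

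Of the 97 members with TGACAG, 56 had the nearest copy within 25 bp of the summit, with a median distance of 23.5 bp, against 18.5 bp in the optimal peaks and 21.5 bp in the next regions. The base before the core was G in 34 of the 97 (35.1%), in 29.5% at optimal summits and in 25.9% in next regions. These shares count the copy nearest the summit. Of all copies across the nuclear genome, 17.9% had G there. The core was present at 29 of 237 intronic member summits (12.2%), 34 of 425 promoter summits (8%), 28 of 330 intergenic summits (8.48%), 3 of 21 in coding exons and 2 of 13 in 5′ UTRs. Among optimal peaks it was present at 17 of 207 intronic, 34 of 429 promoter and 49 of 360 intergenic summits, so the order of introns and intergenic sequence differed between the bands. These splits were looked at after the values were seen and were not tested.

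The composite site TGATTGAT was present at 29 members (2.80%), 37 optimal peaks (3.57%) and 20 next regions (1.93%), against 0.964% of the flanking windows of members and 0.665% of genome windows. Its looser form TGATNNAT, which includes every TGATTGAT, was present at 132 members (12.7%), 136 optimal peaks (13.1%) and 107 next regions (10.3%), with 8.78% in the flanks of members and 7.88% in the genome. Within 25 bp of the summit TGATTGAT was at 0.771% of members, 2.03% of optimal peaks and 0.771% of next regions. The difference from the optimal peaks there missed the threshold (Fisher's exact test, adjusted p = 0.0695). In the 101 bp windows neither form differed past the threshold between members and either band. TGATTGAT was present at 13 of 237 intronic member summits (5.49%), 8 of 425 in promoters (1.88%), 7 of 330 in intergenic sequence (2.12%) and 1 of 11 in 3′ UTRs. It was at none in 5′ UTRs or coding exons. This split was not tested and was not set beside the other bands. Either TGACAG or TGATTGAT was present at 124 members (11.96%), so 913 members held neither within 50 bp of the summit, which says only that these letters are not in that window.

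The GA repeat GAGAGAGA was the only one of the 6 motifs that differed past the threshold between members and optimal peaks. It was present at 54 members (5.21%), 99 optimal peaks (9.55%) and 66 next regions (6.36%), and at 2.36% of the flanking windows of members and 0.664% of genome windows. The odds ratio of members against optimal peaks was 0.521 (0.362 to 0.742), with an adjusted p of 0.0012 by Fisher's exact test. Against the next regions it was 0.808 (0.547 to 1.19; adjusted p = 0.451 by Fisher's exact test). The difference from the optimal peaks missed the threshold of Fisher's exact test with members of ranks 1038 to 1555 alone (5.98%; adjusted p = 0.116) and with the search limited to 25 bp (2.80% against 4.82%; adjusted p = 0.0695). Median GC content of the 101 bp at the summit moved with the bands too, at 47.5% in optimal peaks, 43.6% in members and 41.6% in next regions, and its part in this difference was not tested.

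The E-box CACGTG was present at 30 members (2.89%), 45 optimal peaks (4.34%) and 30 next regions (2.89%). The homeodomain core TAATTA was present at 17 members (1.64%), 13 optimal peaks (1.25%) and 29 next regions (2.80%), and in 4.10% of the flanking windows of members. TAATTA was thus less frequent at member summits than beside them, whereas the other 5 motifs were more frequent at the summit. The same held for TAATTA in optimal peaks (4.53% of flanking windows) and next regions (5.11%). The part of GC content in the TAATTA shares was not tested. Neither CACGTG nor TAATTA passed the threshold in either comparison. Summit windows that were mostly repeat-masked in the reference made up 6.17% of members, 3.18% of optimal peaks and 11.4% of next regions.

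**Figure D5:**
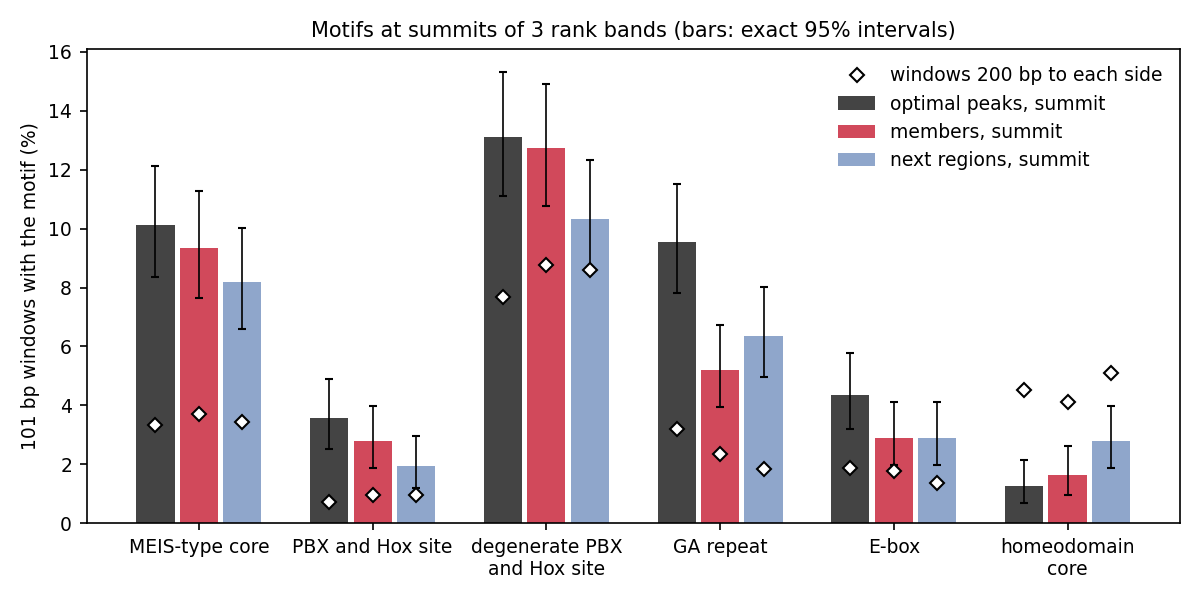
Share of 101 bp windows at summits (y axis, percent) that hold each of 6 motifs (x axis), for optimal peaks, members and next regions; error bars are exact 95% binomial intervals, which cover counting only, and diamonds are windows centred 200 bp to each side. The MEIS-type core is at 9.35% of members and 10.1% of optimal peaks, and the GA repeat at 5.21% and 9.55%.

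At the level of genes, members and optimal peaks reached similar numbers. A gene was counted when a summit lay between 1000 bp upstream and 200 bp downstream of the start of one of its transcripts. Of 19973 protein-coding genes, 519 (2.60%) were counted for the members, 525 (2.63%) for the optimal peaks and 457 (2.29%) for the next regions. Both members and optimal peaks were counted at 26 genes, which is 5.01% of the members' genes, beside the 2.63% of all genes counted for the optimal peaks, and 4.95% of the optimal peaks' genes. The other 493 genes were counted for the members and not for the optimal peaks; with such small shares of all genes, little overlap is no result about the members. The shared genes included unc-62, lgg-2, drap-1, unc-76, miz-1, hlh-11, atx-2, the heterochronic kinase gene kin-20, and din-1, which encodes a co-repressor that acts with DAF-12. Of the members, 443 (42.7%) lay at a start, 358 of them at 1 gene and 85 at more than 1. The median distance to the nearest protein-coding start was 1025 bp for members, 1098 bp for optimal peaks and 1183 bp for next regions.

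Of all protein-coding genes, the members reached 2.60%, the optimal peaks 2.63% and the next regions 2.29%. Of 12 Hox and TALE genes, the optimal peaks reached 5 (41.7%), the next regions 2 (16.7%) and the members only unc-62 (8.33%). That member lay 9 bp upstream of an internal start of unc-62 (chrV:4502394-4502749, rank 2003, signal 26.9), with replicate ranks of 3124, 584, 15187 and 1191. The transgene of the strain also carries unc-62, and signal of the native gene and of the transgene was not told apart here. The Hox gene ceh-13, of the labial type, held a member in an intron (chrIII:7556401-7556756, rank 1743, signal 28.8), 919 bp from its start. The nearest members to lin-39 and mab-5, Hox genes of the mid-body, were 7803 bp (signal 33.7) and 9711 bp (27.9) from a start. The nearest member to the MEIS-related gene psa-3 was 6681 bp away (signal 35.8), and the nearest to ceh-20, the PBX-type partner, was 107178 bp away. The nearest optimal peak was closer than the nearest member at lin-39 (28 bp), ceh-13 (592 bp), ceh-20 (719 bp) and mab-5 (915 bp). That at ceh-20 had a signal of 217.2. The optimal peak was also closer at php-3, nob-1, ceh-40, ceh-60 and irx-1. It was farther at egl-5, where the nearest member lay 21209 bp and the nearest optimal peak 30005 bp from a start. It was also farther at psa-3 (21771 bp against 6681 bp) and at unc-62 (38 bp against 9 bp).

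Of the 14 heterochronic genes, which time larval development, the members reached din-1 and lin-14 (14.3%), the optimal peaks 5 (35.7%) and the next regions 0. The member at din-1 lay 772 bp upstream (signal 35.2, replicate ranks 2726, 1049, 1840 and 4172). That at lin-14 lay 157 bp upstream (signal 29.2, replicate ranks 869, 1653, 17175 and 7559). Of 30 chromatin regulators the members reached 5 (16.7%), the optimal peaks 4 (13.3%) and the next regions 1 (3.33%). Shares of all protein-coding genes were 2.60%, 2.63% and 2.29% in the same order. Members and optimal peaks had no gene in common by this count. The 5 were let-526, a SWI/SNF subunit gene (33.6), mes-2, the worm EZH2 gene (29.5), egl-27 and lin-40, the MTA-type genes (29.4 and 27.7), and ash-2 (29.0), a subunit gene of histone H3K4 methyltransferase complexes. The member at lin-40 met ranks 1233, 1258, 6219 and 1330, and that at mes-2 met 2020, none, 6404 and 10050. The member counted for let-526 lay nearer to the start of F48C1.3. At egl-27, 6 optimal peaks with signals up to 111.5 lay in introns, outside the window around its starts. The lack of shared genes thus rests on that window at egl-27.

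Of 31 insulin and longevity genes the members reached hlh-30, the TFEB gene (31.9), daf-16, the FOXO gene (30.2; ranks 1123, 1571, none and 17354), and aak-2, an AMPK catalytic subunit gene (28.7; ranks 1609, 27926, none and 503). That was 9.68% of the list, as for the optimal peaks, which reached 3 others, and the next regions reached 4 (12.9%). Shares of all protein-coding genes were 2.60% for the members, 2.63% for the optimal peaks and 2.29% for the next regions. Of 27 Wnt genes the members reached cam-1, the ROR-type receptor gene (28.8), and lin-17, a Frizzled gene (26.7). The optimal peaks reached 2 other Wnt genes and the next regions 1. No band reached any of 25 vulval EGF, Ras and Notch genes.

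Of tissue genes, the members reached 2 of 28 pan-neuronal genes, unc-26 (synaptojanin; 30.6) and egl-21 (a carboxypeptidase of neuropeptide processing; 28.1), and 2 of 29 neuron identity regulators, unc-30 (a homeodomain factor of GABA neurons; 35.6) and egl-44 (a TEAD factor; 28.1). Among 34 body wall muscle genes they reached the actin genes act-4 (32.7) and act-1 (27.1). They reached gut-2 (32.9) and fat-6, a fatty acid desaturase gene (32.5), of the 29 genes listed for the intestine, and peb-1 (33.4) of 18 for the pharynx. From the list for epidermis and seam they reached nhr-25 (30.6) of 27 genes, and from that for the germline none of 38. None of these tissue lists had more than 2 genes reached, and such counts give no ground for setting one tissue apart.

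Of 81 ribosomal protein genes, the members reached 6 (7.41%), the next regions also 6 and the optimal peaks 23 (28.4%), beside 2.60%, 2.29% and 2.63% of all protein-coding genes. No gene was reached by both members and optimal peaks. The 6 were rpl-24.1 and rps-10, which share 1 member between them (signal 35.8; ranks 760, 564, none and 24571), rpl-41.2 (35.2), rpl-28 (34.2), rps-26 (32.2) and rps-23 (31.4). The last 3 lay nearer to another gene's start, those of mrpl-49, tmem-107 and dpm-3. The list was not tested, and the band of each gene follows from the signal that formed the bands.

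Among the larger families, the members reached 5 of 269 nuclear hormone receptor genes (1.86%), with nhr-66 (36.4), nhr-85 (32.3), nhr-25 and nhr-50 (29.4) the highest, and 3 of 156 cuticle collagen genes (1.92%), col-41 (29.1), col-10 (28.03) and col-166 (27.9). They reached 5 of 1310 chemoreceptor genes (0.382%), among them srh-17 (36.4), srh-2 (36.2), srh-16 (34.5) and srx-21 (29.2). These shares lay at or under the 2.60% of all protein-coding genes. They reached 3 of 72 histone genes, the linker histone gene his-24 (31.3) and the pair his-61 and his-62 with 1 member between them (29.3), and 2 of 25 bHLH genes, hlh-11 (37.1) and hlh-30. The 1 F-box A gene of 170 was fbxa-72 (29.2), and no flp or nlp neuropeptide gene of 102 and no ceh homeobox gene of 63 was reached.

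In some places several members stood at 1 gene. These groups, sought in windows of 20 kb, were picked after their values were seen and are a description. The TFEB gene hlh-30 held 5 members and no optimal peak between positions 4019157 and 4028327 of chromosome IV, 2 in promoters of its transcripts and 3 in introns. Their ranks in the merged list were 1413, 1603, 1816, 1871 and 2055, with signals of 31.9, 29.98, 28.3, 27.9 and 26.6. In the replicates the first met ranks 633, 4573, 6179 and 9848, the second 2198, 501, 6151 and 13195, and the third 6150, 2676, 6000 and 2113. No replicate listed more than 1 of the 5 among its 1037 highest regions, and replicates 3 and 4 listed none there.

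The gene lin-14 held 5 members and 3 optimal peaks within 20 kb on chromosome X, and egl-27 with its neighbour tbc-6 held 4 members and 6 optimal peaks on chromosome II. At lin-14 the intronic member shown with its TGACAG core (chrX:11481010-11481365, rank 1079, signal 36.2) met replicate ranks of 3072, 542, 1538 and 1065. At unc-62, a gene that the transgene also carries, 4 members stood among 10 optimal peaks, from 3815 bp upstream to beyond the 3′ end. Of those 4, 2 overlapped each other past the 3′ end (ranks 1840 and 1846) and met the same replicate regions, ranked 570, 1684, 2541 and 265. The nearest start to these 2 was that of T28F12.1, 1525 and 1274 bp away. The genes akap-1, an A-kinase anchor gene (chromosome III), and D2023.1 (chromosome V) stood in windows with 4 members and no optimal peak.

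Chromosomes were shared out alike. The X chromosome held 256 members (24.7%), 249 optimal peaks (24.01%) and 237 next regions (22.9%). Chromosome V held 182 members, II 169, III 152, I 142 and IV 136. No chromosome differed past the threshold between members and either band (Fisher's exact test over 6 chromosomes; lowest adjusted p 0.786 against the optimal peaks and 0.624 against the next regions).

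Small non-coding RNA genes lay within 200 bp of the summit at a few members in each class. A tRNA gene lay near 22 members and 24 optimal peaks, a snoRNA gene near 22 and 25, an snRNA gene near 3 and 10, and a miRNA gene near 3 and 5. None differed past the threshold, the snRNA odds ratio being 0.298 (0.0526 to 1.16; Fisher's exact test over 4 types, adjusted p = 0.365). The next regions had a snoRNA gene near 11 summits, also not different from the members past the threshold (odds ratio 2.02, 0.934 to 4.64; adjusted p = 0.311 by Fisher's exact test). The miRNA genes were cel-mir-45 (rank 1150, signal 35.2; replicate ranks 1632, 6276, 12705 and 11614), cel-mir-80 (rank 1516, 30.7; replicate ranks 4117, 404, 2121 and 399) and cel-mir-8192 (rank 1800, 28.4; replicate ranks 1795, 24443, 2337 and none). Replicates 2 and 4 listed the region at cel-mir-80 among their 1037 highest, and no replicate did so at the other 2. A gene named mir-1831 near the member of rank 1466 is typed as snRNA in the annotation and was counted there.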

How the data were processed

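Per the notes deposited with the files, the authors made lists of peaks with background, 1 per replicate and 1 from all replicates merged, and a shorter list cut by IDR (the optimal peaks), on ce10 and ce11. Each list gives, per region, the authors' signal value, a −log10 q-value and the summit offset, all as deposited. Which aligner and which peak caller were run is not given in the sources used here. The files hold no counts, so depth is unknown and intervals cover counting over regions only. The control was not analysed here, and signal was used to rank regions within a list, never between lists.

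The members and the gene lists were chosen with earlier results of these data known. Genes came from Ensembl release 115 (WBcel235, the build of ce11). No filter on low values was used: all 1037 members entered every comparison, and no sample column was left out. The ce10 merged list entered 1 alternative. The 1037 highest regions of replicates 3 and 4 include 29 and 30 mitochondrial regions, left out of shares by location and motif. Replicate values were compared by an exact sign-flip permutation test, shares of regions by Fisher's exact test (Benjamini-Hochberg within each family and comparison), with SciPy 1.17.1 in Python 3.11.15; scripts were tested on simulated data. Biological replicates are as the labels state, without naming the cultures.

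The nearest protein-coding start within 5000 bp named a member (its host gene where none was so near). Members were named for the 10 highest signals, for coverage in all 4 replicates, for the 5 highest covered by 2074 regions of no replicate, for the motif sequences, for the Hox and TALE list and up to 4 genes per other list, and for the 3 regions on each side of both ends. Members covered in 3 replicates, groups within 20 kb, the chromatin gene past 4, ribosomal genes past 4, the miRNA genes and genes shared with the optimal peaks were named after their values were seen. Of the list symbols, 3 were not matched.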

Additional observations from a re-analysis of the deposited data

Results flagged for a closer look

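In the 1037 highest nuclear regions of each replicate's own list, the promoter share of replicate 4 was 30.9%, against 39.5% to 40.4% in the other 3, a gap beyond Dixon's 95% limit for 4 values. Each of 19 sets of 4 values was examined, 1 was beyond the limit, and chance puts about 1 in 20 there. Coding exon summits made up 11.9% of the same regions of replicate 4, against 1.35% to 4.15% in the others, and replicate 4 also covered the fewest members.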

How the results depend on the processing

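Of 269 values under alternatives, 230 kept direction and side of the threshold (or lay within 1.5 times for counts), 7 lost a call, 1 gained one, 19 changed sign, none of them called, and 12 counts or values moved further; depth is unknown, so its effect could not be examined. Members minus optimal peaks, in points: the promoter difference turned to 1.49 with ranks 1038 to 1555 alone (the upper members), 0.193 with 500 bp promoters and 2.60 with 2000 bp, where intergenic (−5.11, Fisher's exact test, adjusted p = 0.0393) became the 1 class called. With the upper members 5′ UTR turned to 0.0983, 3′ UTR to −0.385, X to −1.04, TGACAG to 0.106 and snoRNA to 0.678; with ranks 1556 to 2074 alone (the lower members) IV turned to −0.879 and tRNA to 0.576. The count of motifs called fell to 0 with the upper members (GAGAGAGA −3.56) and within 25 bp (−2.03). Members minus next regions: the lower members gave 0 classes past the threshold (promoter 3.72, coding exon −2.80, 3′ UTR −0.773), with intron at 0.941 and II at −0.0152; the upper members turned 5′ UTR to 0.580, chromosome I to 0.400 and V to −0.562. With 500 bp promoters 5′ UTR was 0.0964, 3′ UTR −1.25 and intron 0.771, with 2000 bp 3′ UTR −0.771. V turned to −0.200 without members near an optimal summit and to −0.193 on ce10. Members covered in all 4 replicates numbered 3 with 518 regions per replicate, 8 with 2074, 0 with 50% overlap, 0 with summits within 100 bp, 5 to 10 with a replicate left out (10 without replicate 4, from 5), and, in an alternative chosen after seeing the data, 0 without members overlapping an optimal peak. Those covered in none numbered 855 with 518 regions, 122 with 2074 and 590 to 657 with a replicate left out. Genes counted numbered 388 with starts reaching 500 bp. With a replicate left out, the second-minus-first differences ran from −5.59 to −2.76 (promoter), 2.76 to 4.98 (coding exon) and −3.34 to −2.60 points (TGACAG). Between groups, no paired analysis was possible because all samples form 1 group; the first and second sets were paired within each replicate.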
